A study of Mus musculus with 9 samples.

Results

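Transcripts of the prostaglandin pathway were examined in MC3T3-E1 cells, a preosteoblast line derived from newborn mouse calvaria (C57BL/6). The genes were chosen by name, as the cyclooxygenases *Ptgs1* and *Ptgs2*, the terminal synthases *Ptges*, *Ptges2* and *Ptgis*, the receptors *Ptger1*, *Ptger2*, *Ptger4* and *Ptgfr*, and the degrading enzyme *Hpgd*. The array annotation named 19 probe sets for 9 of these 10 genes, among 45037 probe sets compared and 18193 named genes. *Ptgs1* had no probe set named for it alone and was not analysed here.

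The cells had been grown with ascorbic acid and β-glycerophosphate, replated and left to attach. LIPUS 24 h cells were cultured for 24 h after a single 20-min exposure to low-intensity pulsed ultrasound (LIPUS, 1.5 MHz, 30 mW/cm2), and LIPUS 6 h cells for 6 h after the same exposure. Control cells were mock treated, and their time in culture is not given, so a change against control cannot be told apart from a change with culture time. The same holds for LIPUS 24 h against LIPUS 6 h cells, whose culture times after exposure differ. Each group had 3 numbered arrays, and all came from the same cell line under the same medium, with no mutant or other agent. Arrays of the same number are called an experiment below, a pairing that was inferred and that the labels do not state. Because only a cell line in culture was measured, other cells of a fracture site were not present.

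Cyclooxygenases convert arachidonic acid, released from membranes by phospholipases, into prostaglandin H2. *Ptgs1* is the mostly constitutive form and *Ptgs2* the form induced by cytokines, growth factors and mechanical loading of bone cells. Terminal synthases turn prostaglandin H2 into prostaglandin E2, prostacyclin or other prostanoids, which act on G protein-coupled receptors. Prostaglandin E2 stimulates bone formation and resorption through the EP2 and EP4 receptors, which raise cyclic AMP, and prostaglandin F2α acts through the FP receptor encoded by *Ptgfr*, which couples to calcium release.

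Promoter sequence is shown for *Ptgfr* and *Ptgs2*, since these are the genes around whose values the results turn. The RefSeq promoter table (build GRCm38.p6) held 8 of the 10 genes. The 250 bases before the annotated transcript start are given 5′ to 3′ on the strand of the gene, chr3:151837529-151837778 on the minus strand for *Ptgfr* and chr1:150099781-150100030 on the plus strand for *Ptgs2*. The third line shows 24 bases just after the start of *Ptgs2* (chr1:150100038-150100061, plus strand). Capitals mark matches, on either strand, to any of 6 textbook motifs, namely the cyclic AMP response element TGACGTCA, its core TGACG, the E-box CACGTG, the C/EBP palindrome TTGCGCAA, the GC box GGGCGG and the TATA box TATAAA.
Ptgfr: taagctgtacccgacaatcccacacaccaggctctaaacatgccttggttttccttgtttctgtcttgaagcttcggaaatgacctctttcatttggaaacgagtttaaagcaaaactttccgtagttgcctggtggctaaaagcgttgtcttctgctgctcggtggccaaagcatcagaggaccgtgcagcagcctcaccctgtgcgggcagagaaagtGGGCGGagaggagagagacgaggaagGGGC
Ptgs2: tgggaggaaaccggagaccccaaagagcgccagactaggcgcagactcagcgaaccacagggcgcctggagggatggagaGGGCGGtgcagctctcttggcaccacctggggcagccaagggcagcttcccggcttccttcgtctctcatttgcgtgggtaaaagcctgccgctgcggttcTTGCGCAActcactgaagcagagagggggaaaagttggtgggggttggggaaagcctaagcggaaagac
Ptgs2 after start: ccactaCGTCACGTGgagtccgct

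The *Ptgfr* window held 2 GC boxes, of which the nearer lies across the transcript start, so that its last bases fall outside the printed stretch. It held no match to the other motifs. The *Ptgs2* window held a GC box, a C/EBP palindrome, and, just after the start, a cyclic AMP response element core on the minus strand that overlaps an E-box. The capitals of that line show both. Over all 32851 promoter windows of 300 bases (250 before and 50 after the start), 35.7% held a GC box, 20.8% the cyclic AMP response element core, 7.15% the E-box, 13.6% the TATA box, 1.79% the full response element and 0.183% the C/EBP palindrome. Among the 8 genes with a window, 5 held a GC box and 1 held the C/EBP palindrome. These matches are letters in a sequence, placed relative to the annotated start. Neither the start used in these cells nor binding was measured.

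Among the prostaglandin genes, only *Ptgfr* passed the test at 24 h after LIPUS, where it was higher than in control cells. The test was limma's moderated test with the experiment number as a block and Benjamini-Hochberg adjustment over all 45037 probe sets, and a probe set was called at an adjusted p under 0.05. It called 1 of the 19 probe sets (5.26%), against 2.73% of all probe sets (1229). Of all probe sets 1.8% were called higher and 0.933% lower, and of the 19, 1 and 0. The LIPUS 24 h and control arrays overlapped for each of the 19, while for 1.47% of all probe sets they did not. The median log2 change of the 19 probe sets at 24 h was 0.05, against 0.00 over all probe sets, and ran from -0.26 to 0.51. For 12 of the 19 it was smaller than 0.1 in size.

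*Ptgfr* was measured by 5 probe sets. The brightest, 1420349_at, had log2 signals of 9.37, 9.77 and 9.20 in LIPUS 24 h cells, 9.07, 9.44 and 8.95 in LIPUS 6 h cells, and 9.07, 9.25 and 8.89 in control cells, in experiments 1, 2 and 3. The 24 h array was the highest of its experiment each time. Signals also differed between experiments, with experiment 2 highest in every group, so that the groups overlapped. The increase at 24 h was 0.37 on the log2 scale (SE 0.05, 95% interval 0.26 to 0.48, n = 3 experiments, limma adjusted p = 0.0105). The ratio of LIPUS 24 h to control was 1.22, 1.43 and 1.24 in the 3 experiments, and their SD was 0.11 (n = 3). All 3 ratios lay below 1.5, the size of change that the study's own selection asked for.

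At 6 h the same probe set differed from control by 0.08 (95% interval -0.03 to 0.19, limma adjusted p = 0.959). Against LIPUS 6 h cells, the LIPUS 24 h cells were higher by 0.29 (SE 0.05, limma adjusted p = 0.0307), with log2 differences of 0.29, 0.33 and 0.25 in the 3 experiments. The call at 24 h was lost without experiment 1 (0.41, adjusted p = 0.385) or experiment 2 (0.30, adjusted p = 0.153). Without the array of control 1 the adjusted p was 0.071, without LIPUS 24 h 1 it was 0.0855, without LIPUS 24 h 2 it was 0.0602 and without LIPUS 6 h 1 it was 0.0611, with changes between 0.32 and 0.41. The call between 24 h and 6 h was lost without experiment 1, experiment 2, control 1, LIPUS 24 h 1, LIPUS 24 h 2 or any of the LIPUS 6 h arrays, with differences of 0.24 to 0.31 and adjusted p of 0.0854 to 0.692.

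**Figure D1:**
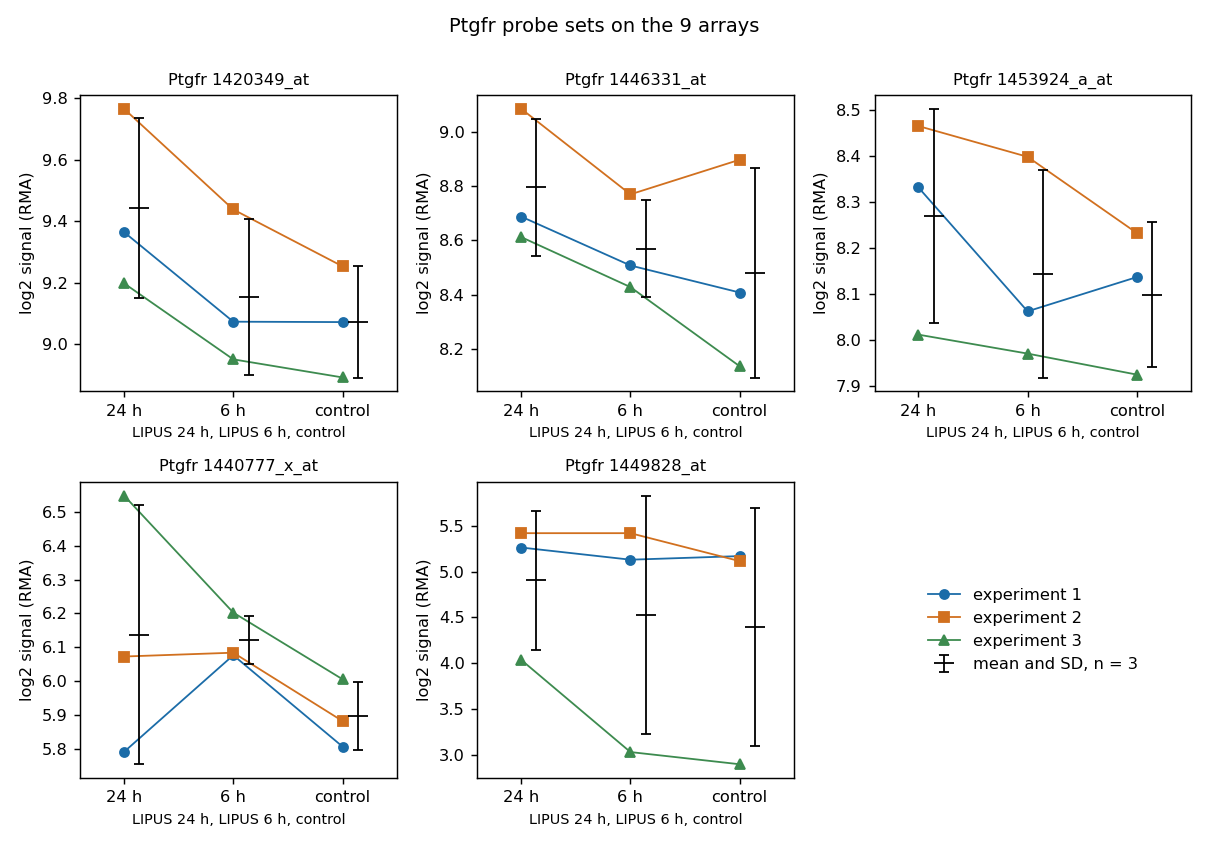
Log2 signal (RMA) of the 5 *Ptgfr* probe sets in LIPUS 24 h, LIPUS 6 h and control cells; points joined by a line are arrays of 1 experiment, and black bars are the mean ± SD of 3 arrays. For 1420349_at the 24 h point is the top of each line, at 9.37, 9.77 and 9.20.

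The other probe sets of *Ptgfr* lay above control on average at 24 h but did not pass the test. Probe set 1446331_at had log2 signals of 8.69, 9.09 and 8.61 in LIPUS 24 h cells, 8.51, 8.77 and 8.43 in LIPUS 6 h cells and 8.41, 8.90 and 8.14 in control cells. Its 24 h array was also the highest in every experiment, by 0.31 against control on average (SE 0.07, 95% interval 0.14 to 0.49, limma adjusted p = 0.0886). Probe set 1453924_a_at, whose suffix marks a set shared by transcripts of the same gene, differed by 0.17 (95% interval 0.04 to 0.30, limma adjusted p = 0.237). The dimmest, 1449828_at, had the highest estimate of the 5 (0.51, 95% interval 0.02 to 1.00, limma adjusted p = 0.369), with log2 differences of 0.09, 0.31 and 1.14 in experiments 1, 2 and 3, so that most of it came from experiment 3. Probe set 1440777_x_at, whose suffix marks possible cross-hybridization, differed by 0.24 at 24 h (limma adjusted p = 0.469) and was lower than control in experiment 1.

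With the 5 probe sets averaged, *Ptgfr* was higher at 24 h by 0.32 (SE 0.06, limma adjusted p = 0.0345 over 18193 genes, of which 4.01% were called). The average did not pass between 24 h and 6 h (0.21, limma adjusted p = 0.176). After the mean of each experiment was taken off, correlations between pairs of the 5 probe sets over the 9 arrays ran from 0.12 to 0.88, which is a description of probe sets read on the same arrays. Of all probe sets, 10.3% were higher at 24 h in all 3 experiments. Among the 19 there were 4, and all of them were *Ptgfr* probe sets.

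Over the 9 arrays, with experiment means taken off, the genes whose pattern was most like that of 1420349_at among 16514 probe sets in the top 40% by mean signal were *Tsacc* (r = 0.996), *Ptprk* (r = 0.994) and *Slc30a1* (r = 0.994). For 1446331_at they were *Golt1b* (r = 0.996), *Mef2d* (r = 0.988) and *Tab2* (r = 0.986). These values describe likeness on shared arrays and were picked as the highest of many.

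**Figure D2:**
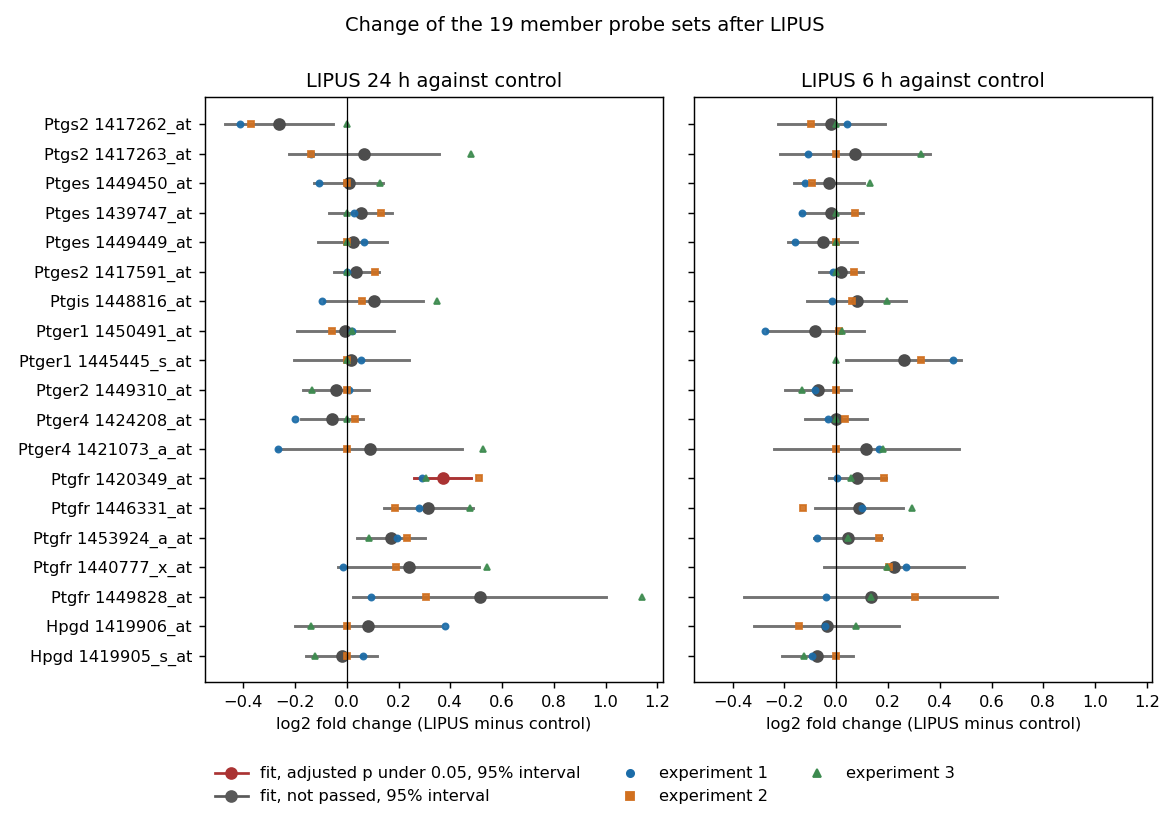
Log2 change of the 19 probe sets, LIPUS 24 h minus control and LIPUS 6 h minus control; large points are the fit with its 95% interval (red where the adjusted p is under 0.05) and small points the 3 experiments. Only *Ptgfr* 1420349_at is red, at 0.37, and intervals reach 0.49 to each side for the dimmest *Ptgfr* probe set.

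No transcript of a prostaglandin-producing enzyme passed the test at either time. For *Ptgs2*, the inducible cyclooxygenase, probe set 1417262_at had log2 signals of 8.09, 8.40 and 8.05 in LIPUS 24 h cells, 8.55, 8.67 and 8.05 in LIPUS 6 h cells and 8.51, 8.77 and 8.05 in control cells. The 24 h array was the lowest in experiments 1 and 2, by 0.41 and 0.37 against control, and in experiment 3 all 3 arrays had the same value to the last digit deposited. Over the 3 experiments the difference was -0.26 (SE 0.09, 95% interval -0.47 to -0.05, limma adjusted p = 0.26).

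The 1417262_at difference passed in some other fits. Without experiment 3 it was -0.39 (limma adjusted p = 0.0129), and without the LIPUS 24 h array of experiment 3 alone it was -0.39 (adjusted p = 0.0133). Against LIPUS 6 h cells the 24 h cells differed by -0.24 (limma adjusted p = 0.368), and without experiment 3 by -0.36 (adjusted p = 0.0163). With limma's array weights it was called as well, at -0.35 against control (adjusted p = 0.00125) and -0.26 against 6 h (adjusted p = 0.0143). Those weights were 0.104, 21.9 and 0.219 for the LIPUS 24 h arrays of experiments 1, 2 and 3, so the fit leaned mostly on experiment 2. It called 9276 of 45037 probe sets at 24 h against control, where the main fit called 1229. At 6 h against control the difference was -0.02 (95% interval -0.23 to 0.19), with values on both sides of 0. The dimmer probe set of *Ptgs2*, 1417263_at, differed at 24 h by 0.07 (95% interval -0.22 to 0.36, limma adjusted p = 0.85), being below control in experiments 1 and 2 and above it in experiment 3. Averaged over both probe sets, *Ptgs2* differed by -0.10 (SE 0.09, limma adjusted p = 0.678).

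*Ptges* encodes the inducible microsomal prostaglandin E synthase, which often works beside *Ptgs2*. Its brightest probe set, 1449450_at, had log2 signals of 7.60, 7.78 and 7.65 in LIPUS 24 h cells, 7.59, 7.68 and 7.65 in LIPUS 6 h cells and 7.71, 7.78 and 7.52 in control cells. These arrays showed no common direction, and the difference at 24 h was 0.01 (95% interval -0.13 to 0.14). The other *Ptges* probe sets, 1439747_at and 1449449_at, differed by 0.05 and 0.02, with limma adjusted p of 0.71 and 0.892.

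*Ptges2*, a second membrane-associated prostaglandin E synthase, had 7.72, 7.93 and 7.61 in LIPUS 24 h cells, 7.70, 7.89 and 7.61 in LIPUS 6 h cells and 7.72, 7.82 and 7.61 in control cells (probe set 1417591_at). It had the narrowest interval of the enzymes, with a difference at 24 h of 0.04 (95% interval -0.05 to 0.12). *Ptgis*, prostacyclin synthase, had 6.15, 6.14 and 6.00 in LIPUS 24 h cells, 6.23, 6.14 and 5.85 in LIPUS 6 h cells and 6.25, 6.08 and 5.65 in control cells (probe set 1448816_at). Its difference at 24 h was 0.10 (95% interval -0.09 to 0.29), with experiment 1 below and experiment 3 above control.

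**Figure D3:**
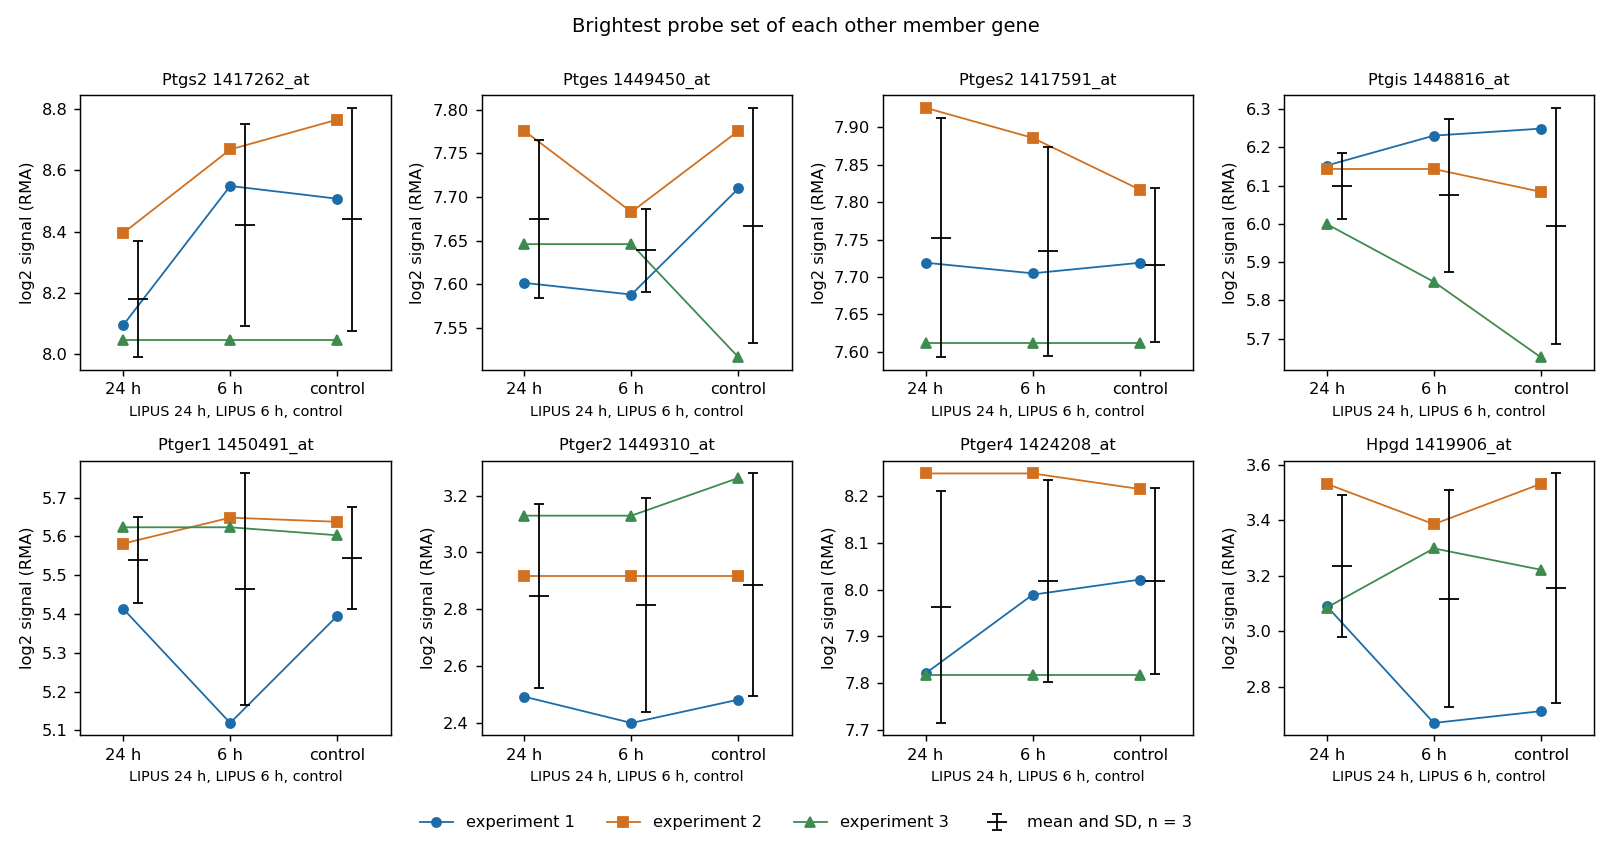
Log2 signal (RMA) of the brightest probe set of each of the 8 other genes in LIPUS 24 h, LIPUS 6 h and control cells; lines join arrays of 1 experiment and black bars are the mean ± SD of 3 arrays. *Ptgs2* in experiment 3 is a flat line at 8.05, and flat stretches recur in experiments 2 and 3 of the other genes.

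The prostaglandin E2 receptors did not pass the test either. *Ptger4*, which encodes EP4, had 7.82, 8.25 and 7.82 in LIPUS 24 h cells, 7.99, 8.25 and 7.82 in LIPUS 6 h cells and 8.02, 8.22 and 7.82 in control cells (probe set 1424208_at). Only experiment 1 lay below control (by 0.20), experiment 2 was 0.03 above it and experiment 3 equal to it. The difference at 24 h was -0.06 (95% interval -0.18 to 0.06). Its dim probe set 1421073_a_at gave 0.09 with a wide interval (-0.27 to 0.45).

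*Ptger2*, which encodes EP2, was among the dimmest probe sets of the array, at the 12.5th percentile of mean signal (1449310_at). It had 2.49, 2.92 and 3.13 in LIPUS 24 h cells, 2.40, 2.92 and 3.13 in LIPUS 6 h cells and 2.48, 2.92 and 3.26 in control cells, and the difference at 24 h was -0.04 (95% interval -0.17 to 0.09). At such signals a probe set can carry little but background, so the interval covers these signals rather than a level of transcript. *Ptger1*, which encodes EP1, had 5.41, 5.58 and 5.62 in LIPUS 24 h cells, 5.12, 5.65 and 5.62 in LIPUS 6 h cells and 5.40, 5.64 and 5.60 in control cells (1450491_at), a difference at 24 h of -0.01 (95% interval -0.19 to 0.18).

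A second *Ptger1* probe set, 1445445_s_at, gave the highest 6 h estimate of the 19 (0.26, 95% interval 0.04 to 0.48), with an unadjusted p of 0.0282 and a limma adjusted p of 0.959. It was above control by 0.45 and 0.33 in experiments 1 and 2 and equal to it in experiment 3, and its suffix marks probes that can match transcripts of several genes. It was the only 1 of the 19 with an unadjusted p under 0.05 at 6 h. At that time limma called no probe set (0%, against 0 of the 19), with 1575 (3.5%) at an unadjusted p under 0.05. The methods' t-test, on the same arrays without the pairing, called 0 after adjustment as well. The *Ptgfr* probe set 1440777_x_at was the only 1 of the 19 whose 6 h and control arrays did not overlap (6.08, 6.08 and 6.20 in LIPUS 6 h cells, against 5.81, 5.88 and 6.01 in control cells), which held for 0.273% of all probe sets. It had a difference of 0.22 (95% interval -0.05 to 0.50, limma adjusted p = 0.959).

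*Hpgd* encodes 15-hydroxyprostaglandin dehydrogenase, the enzyme that starts the inactivation of prostaglandins. Its probe set 1419906_at had 3.09, 3.53 and 3.08 in LIPUS 24 h cells, 2.67, 3.39 and 3.30 in LIPUS 6 h cells and 2.71, 3.53 and 3.22 in control cells. The difference at 24 h was 0.08 (95% interval -0.20 to 0.36), at the 18.6th percentile of signal. The other, 1419905_s_at, was at the 11.9th percentile and differed by -0.02. As for *Ptger2*, probe sets this dim can carry little but background.

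Of the 19 probe sets, 5 had an unadjusted p under 0.05 at 24 h (26.3%), against 12.6% of all probe sets. They were 4 of *Ptgfr*, all higher, and *Ptgs2* 1417262_at, lower. Between 24 h and 6 h, 1 of the 19 was called (*Ptgfr* 1420349_at), against 2.02% of all. No probe set of the 19 passed 1.5-fold in all 3 experiments at 24 h. Of all probe sets, 43 (0.0955%) did so upward and 16 (0.0355%) downward. These counts come from the deposited signals and are not those of the study. The study listed more probe sets in each direction, with the larger gap downward, and the cause of the gap was not tested. The median half-width of the 19 intervals, which are 95% intervals without adjustment for the number of probe sets, was 0.17. Passing the adjusted test took more than an interval that excludes 0, as *Ptgfr* 1446331_at shows (0.31, SE 0.07, limma adjusted p = 0.0886).

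Identical values within an experiment touched these genes directly. In experiment 2 the LIPUS 24 h and control arrays held the same value for 7 of the 19 probe sets (36.8%), against 48.4% of all probe sets. In experiment 3 they did so for 6 of 19 (31.6%), against 31.9% of all, and in experiment 1 for 0 of 19, against 1.26% of all. In all, 11 of the 19 (57.9%) had such a tie in at least 1 experiment, against 63% of all probe sets. None of the 1229 probe sets called at 24 h had such a tie. Among the 16676 probe sets without a tie 7.37% were called, and of the 8 prostaglandin probe sets without a tie 1 was called, *Ptgfr* 1420349_at. How these ties came about was not tested.

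**Figure D4:**
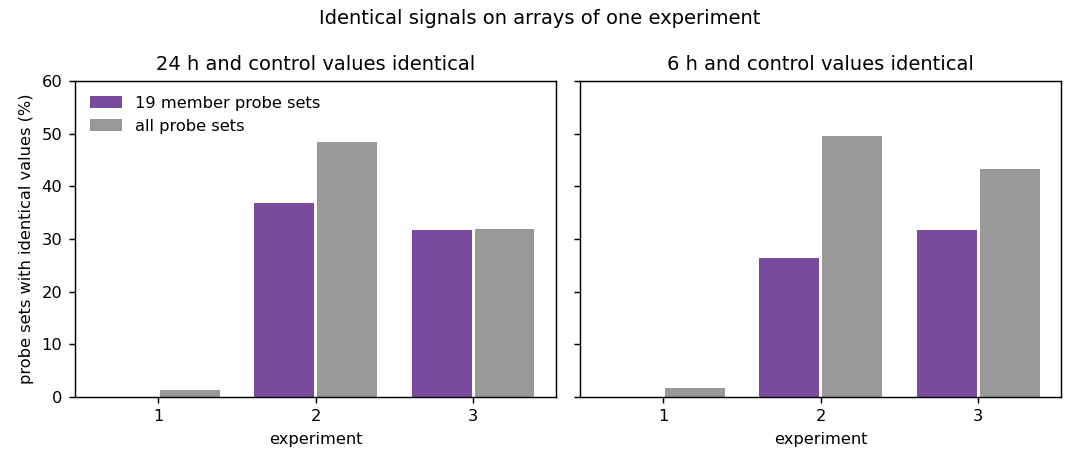
Percent of probe sets with identical values on 2 arrays of an experiment, for LIPUS 24 h and control (left) and LIPUS 6 h and control (right), in the 19 prostaglandin probe sets (purple) and all 45037 (grey). Experiments 2 and 3 reach 48.4% and 31.9% of all probe sets for 24 h and control, and experiment 1 stays at 1.26%.

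Other genes of the pathway were counted from 7 lists, with the probe set of the highest mean for each gene. Of 84 measured genes, 4 rose and 2 fell at 24 h (7.14%), against 4.14% of 18193 genes, 2.57% being called higher and 1.57% lower. The lists were chosen with earlier results of these data known. They include *Nr4a1*, which the study had listed as upregulated on these arrays, so this share is a description only. None of the 84 passed at 6 h, as for all genes. The calls depended on the arrays used: the 6 at 24 h became 0 to 6 when an array or an experiment was left out, and 0 without experiment 1 or without experiment 2. Over 12 such omissions *Igf1* and *Nr4a1* were called in 10 each, *Pla2g7* in 5, *Per1* in 3, *Alox5ap* in 1 and *Jun* in 0, all with their sign kept. The changes ran from -0.54 to -0.37 for *Pla2g7*, 0.32 to 0.45 for *Per1*, 0.23 to 0.29 for *Alox5ap* and -0.25 to -0.15 for *Jun*. *Jun* was lost in each omission and *Alox5ap* in each but that of LIPUS 6 h 1. *Pla2g7* and *Per1* were both lost without experiment 1, experiment 2, control 1, control 2, LIPUS 24 h 1, LIPUS 24 h 2 or LIPUS 6 h 1, and *Per1* also without LIPUS 6 h 2 or LIPUS 6 h 3. Upstream of the cyclooxygenases, 1 of 14 genes of arachidonate release fell and none rose, with a list median of -0.02. This was *Pla2g7*, a secreted phospholipase that inactivates platelet-activating factor rather than feeding the cyclooxygenases. It had 7.99, 8.28 and 7.81 in LIPUS 24 h cells, 8.48, 8.71 and 8.12 in LIPUS 6 h cells and 8.51, 8.84 and 8.04 in control cells, a fall at 24 h of -0.43 (SE 0.06, limma adjusted p = 0.019). *Pla2g4a*, the cytosolic phospholipase that releases arachidonate, differed by -0.18 (limma adjusted p = 0.265).

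None of the 5 other prostanoid synthases passed in any comparison, the smallest p at 24 h being that of *Hpgds*, a prostaglandin D synthase (0.07, limma adjusted p = 0.697). None of the 8 other receptors and partners passed, and the smallest p values were those of *Ptgfrn*, a membrane protein that binds the FP receptor (-0.15, limma adjusted p = 0.381), and *Ptgdr2*, a prostaglandin D2 receptor (-0.17, adjusted p = 0.396). Of 5 genes of transport and breakdown, *Ptgr1*, which reduces prostaglandin metabolites, was lower at 24 h than at 6 h (-0.14, limma adjusted p = 0.0291) but not against control (-0.09, adjusted p = 0.115).

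In the parallel lipoxygenase branch, 1 of 12 genes rose. *Alox5ap*, which presents arachidonate to 5-lipoxygenase, had 7.81, 7.996 and 7.64 in LIPUS 24 h cells, 7.54, 7.57 and 7.28 in LIPUS 6 h cells and 7.52, 7.71 and 7.43 in control cells. It rose by 0.26 at 24 h (SE 0.05, limma adjusted p = 0.0321). *Alox5* itself differed by -0.09 (adjusted p = 0.817).

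Downstream, 3 of 21 genes known to respond to cyclic AMP rose at 24 h and none fell, against 2.57% of all genes called higher and 1.57% called lower, while the list median was 0.00. The list was chosen with earlier results of these data known. It includes *Nr4a1*, which the study had listed as upregulated on these arrays, so the count is not independent of them. *Nr4a1*, an orphan nuclear receptor induced as an early gene, had 8.31, 8.54 and 8.22 in LIPUS 24 h cells, 7.71, 7.90 and 7.41 in LIPUS 6 h cells and 7.76, 7.86 and 7.36 in control cells. Its 24 h arrays all lay above all others, with a rise of 0.70 (SE 0.06, limma adjusted p = 0.00239). Against control, such a gap in either direction held for 1.47% of all probe sets. *Igf1*, a growth factor for osteoblasts, had 10.81, 10.90 and 10.56 in LIPUS 24 h cells, 10.53, 10.61 and 10.14 in LIPUS 6 h cells and 10.38, 10.43 and 10.06 in control cells, a rise of 0.47 (SE 0.03, adjusted p = 0.00118). *Per1*, a clock gene with a cyclic AMP response element, rose by 0.37 (SE 0.06, adjusted p = 0.0322). The other 18 did not pass, among them *Fos* (-0.05) and *Il6* (-0.01).

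Of 19 regulators of the *Ptgs2* promoter or mRNA, 1 fell at 24 h and none rose. *Jun*, a subunit of AP-1, had 9.92, 10.18 and 9.47 in LIPUS 24 h cells, 10.22, 10.37 and 9.70 in LIPUS 6 h cells and 10.22, 10.29 and 9.67 in control cells, a fall of -0.20 (SE 0.04, limma adjusted p = 0.0443). *Egr1*, an early-response zinc finger factor, was lower at 24 h than at 6 h (-0.18, adjusted p = 0.0479), and differed from control by 0.01 at 24 h and 0.19 at 6 h (adjusted p = 0.951 and 0.959). *Cebpb*, which encodes a factor that binds C/EBP sites, differed at 24 h by -0.14 (adjusted p = 0.146).

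**Figure D5:**
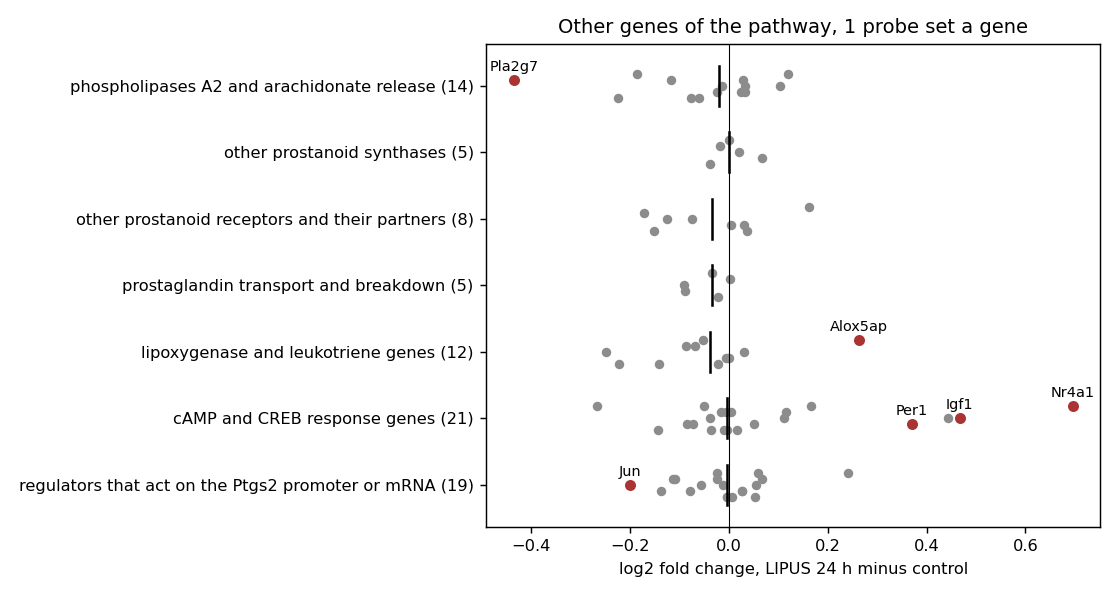
Log2 change, LIPUS 24 h minus control, of 84 other pathway genes in 7 lists, 1 probe set a gene; red points have an adjusted p under 0.05, and black ticks are list medians. *Nr4a1* (0.70), *Igf1* (0.47), *Per1* (0.37) and *Alox5ap* (0.26) lie to the right, and *Jun* (-0.20) and *Pla2g7* (-0.43) to the left.

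The label of the cells was set against marker genes. Of 9 listed osteoblast markers 6 were measured, and none of these was called. *Col1a1* and *Col1a2* were at the 99.4th and 100th percentile of mean signal, while *Ibsp* was at the 23.6th. *Alpl* had a mean log2 signal of 5.02 in control cells and 5.30 in LIPUS 24 h cells. *Bglap* was not among the markers measured, so these calls do not bear on it. The paper reports *Bglap* mRNA as raised after LIPUS by real-time PCR. Of 6 leukocyte, 4 endothelial and 3 adipocyte markers none was called. Some markers of other lineages were bright in control cells, with mean log2 signals of 10.06 for *Col2a1*, 9.36 for *Sox9* and 9.76 for *Krt14*. The other chondrocyte and epithelial markers ran from 3.77 (*Col10a1*) to 7.74 (*Epcam*). The chondrocyte marker *Col2a1* (-0.82) and the epithelial markers *Krt14* (-0.98) and *Cdh1* (-0.75) fell at 24 h, with limma adjusted p of 9.0e-05, 9.0e-05 and 0.0198. The study had listed *Krt14* and *Cdh1* as downregulated on these arrays, so their fall, and that of a sum holding them, is not independent of that selection. Over the 12 omissions of an array or an experiment, the calls of *Col2a1* and *Krt14* were kept in 11 each (lost without experiment 1). That of *Cdh1* was kept in 5, with changes from -0.90 to -0.61, and lost without experiment 1, experiment 2, control 1, control 2, LIPUS 24 h 1, LIPUS 24 h 2 or LIPUS 6 h 1. The other epithelial markers *Krt5* (-0.18, adjusted p = 0.374) and *Epcam* (0.03, adjusted p = 0.76) did not pass. Nor did the chondrocyte markers *Acan* (-0.11, adjusted p = 0.542), *Sox9* (-0.13, adjusted p = 0.175) and *Col10a1* (-0.06, adjusted p = 0.722). The summed linear signal of 4 epithelial markers was 659 to 840 in LIPUS 24 h cells, 1085 to 1306 in LIPUS 6 h cells and 1084 to 1317 in control cells. That of 4 chondrocyte markers was 1003 to 1474 in LIPUS 24 h cells, 1448 to 2141 in LIPUS 6 h cells and 1482 to 2007 in control cells. *Krt14* alone held 60.2% to 74.1% of the epithelial sum of an array, and *Col2a1* 46.5% to 63.5% of the chondrocyte sum. The sum of 3 adipocyte markers was 23.6 to 37.6 in LIPUS 24 h cells, 41.6 to 54.1 in LIPUS 6 h cells and 38.8 to 45.0 in control cells, so that its 24 h arrays lay below all others. Of single probe sets, 1.47% had LIPUS 24 h and control arrays that did not overlap. These markers were dim, at the 12.4th to 43.3rd percentile of mean signal. *Fabp4*, a fatty acid binding protein, alone held 44.4% to 73.6% of the sum of an array. It was lower at 24 h in all 3 experiments without passing the test (-0.63, adjusted p = 0.321). The leukocyte sum (222 to 253, 231 to 265 and 231 to 271 in LIPUS 24 h, LIPUS 6 h and control cells) and the endothelial sum (67.1 to 86.8, 61.8 to 87.3 and 68.5 to 87.3) overlapped between the groups. Their part in the *Ptgfr* result was not tested, and in RNA from whole cultures more cells with a transcript and more of it in each cell cannot be told apart. The reference genes *Actb* (-0.02, adjusted p = 0.701) and *Hprt* (-0.06, adjusted p = 0.278) did not pass at 24 h.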

How the data were processed

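The authors hybridized cRNA from total RNA of each culture to Affymetrix whole-genome mouse arrays and deposited log2 signals made with RMA per the labels. RMA settings are not given in the sources used here, and array medians ran from 4.89 to 5.15. The number of arrays limits the precision. Control probe sets (64 of 45101) were left out, and symbols came from the platform annotation, with 34945 probe sets naming 1 gene, 932 several and 9160 none.

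Log2 values were tested with limma 3.58.1 (R 4.3.3; lmFit, then eBayes with the prior variance following intensity). The fit held all 9 arrays and a block for the experiment number, and p-values were adjusted by Benjamini-Hochberg. Deviations of same-numbered arrays from their group means correlated at 0.70 to 0.93, those of other numbers at -0.67 to 0.01, so the numbers of the labels were taken to pair the arrays. Such deviations cancel within a group, so high values for the same number force low ones for the others. The second range is therefore not separate evidence of the pairing. That the arrays are separate cultures is not stated per array, so p-values measure only the spread between them. The fit was tested on simulated data first.

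The members and lists were chosen with earlier results of these data known. Every probe set of the genes was described, in full where it passed or was the brightest of its gene. From each list at most 4 passing genes with the largest change were named, or at most 2 by smallest p where none passed. *Ibsp*, *Pla2g4a*, *Alox5*, *Fos*, *Il6*, *Cebpb* and the cell type markers with values were named outside this rule, after their values were seen. Likeness was searched among the top 40% of probe sets by mean. Alternatives covered the block, trend, filter, normalization, array weights, tests, threshold, gene summary and omitted arrays.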

Additional observations from a re-analysis of the deposited data

Results flagged for a closer look

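For 8 genes the change at 24 h differed from the change at 6 h by a test of the difference itself, limma's contrast of LIPUS 24 h against LIPUS 6 h. Both changes share the control arrays, which cancel in this contrast, so it compares LIPUS 24 h with LIPUS 6 h arrays alone. No control is labelled as matched in time to either group. A changing response to LIPUS therefore cannot be told apart from a change with culture time. The prostaglandin gene was *Ptgfr* (1420349_at), with a log2 difference of 0.29 (adjusted p = 0.0307), 1 of 19 probe sets against 2.02% of all. The other 7 were among 84 genes of the pathway lists (8.33%), against 3.24% of 18193 genes. Those lists were chosen with earlier results of these data known, and include *Nr4a1*, which the study had listed as upregulated. In the pathway lists the 24 h change was the higher for *Nr4a1* (0.68, adjusted p = 0.00304), *Alox5ap* (0.35, adjusted p = 0.0138) and *Igf1* (0.33, adjusted p = 0.00477). It was the lower for *Pla2g7* (-0.41, adjusted p = 0.0276), *Jun* (-0.24, adjusted p = 0.0262), *Egr1* (-0.18, adjusted p = 0.0479) and *Ptgr1* (-0.14, adjusted p = 0.0291). The markers *Krt14* (-0.96, adjusted p = 8.7e-05), *Col2a1* (-0.84, adjusted p = 8.7e-05) and *Cdh1* (-0.79, adjusted p = 0.0205) were also lower at 24 h than at 6 h, and their part in these differences was not tested. *Krt14* and *Cdh1* had been listed by the study as downregulated. Each of the 8 genes kept its sign in all 3 experiments. They were picked by a test on these same differences, so this is not separate support. Over 12 omissions of an array or an experiment the call was kept in 9 for *Nr4a1* and *Igf1*, 5 for *Alox5ap*, 4 for *Ptgfr*, *Pla2g7* and *Jun*, 3 for *Ptgr1* and 0 for *Egr1*.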

How the results depend on the processing

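Across 31 alternatives a comparison, 1590 values of the 19 probe sets were recomputed, of which 1542 kept their side of the threshold, 21 became called, 27 lost the call and no called value reversed. Without the replicate block 0 of the 19 were called at 24 h against control and 0 between 24 h and 6 h, where the block gave 1 and 1, and over all probe sets 1 and 0 were called (1229 and 909 with it). At 24 h against control the count of 1 became 0 with only the 6 arrays of the groups compared, the methods' t-test (adjusted or not), an adjusted paired t-test or a threshold of 0.01. It became 2 with a random block, the top 40% of probe sets, those above the median, a threshold of 0.1 or, chosen after seeing the data, only the 5755 probe sets with no identical values in an experiment, *Ptgfr* 1446331_at being the addition. With array weights of 0.104 to 64.4 it became 7, *Ptgs2* 1417262_at, *Ptges* 1439747_at, *Ptges2* 1417591_at and 4 *Ptgfr* probe sets. At 6 h the count of 0 became 1 (*Ptgfr* 1440777_x_at) with either t-test unadjusted. Between 24 h and 6 h the count of 1 became 0 without the intensity trend, with only 6 arrays, by gene means, by the methods' t-test (adjusted or not), the adjusted paired t-test or at 0.01, 2 with the unadjusted paired t-test and 4 with array weights. Leaving out arrays or experiments gave 0 to 2 called at 24 h, 0 at 6 h and 0 to 2 between 24 h and 6 h. The *Ptgfr* 1420349_at change at 24 h stayed between 0.30 and 0.49 in 30 alternatives and was called in 18. Over all probe sets the calls at 24 h numbered 522 without the trend, 5 with only 6 arrays, 1914 in the top 40%, 9276 with array weights, 0 without experiment 1 and 49 without experiment 2. Of 84 pathway list genes, 6 called at 24 h became 0 without the block, with only 6 arrays or after adjusted t-tests, 2 without the trend and 23 with array weights. The causes were not tested.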
